A study of Drosophila melanogaster with 7 samples.

Results

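Small nucleolar RNA (snoRNA) genes made up 172 of the 7608 genes with a row in the table of expression values. They were taken as all rows whose FlyBase symbol begins with snoRNA: or scaRNA:, or whose annotated class in the BDGP6 annotation is snoRNA, and they include FBgn0065058, which was singled out with its result already known. That annotation lists 274 such genes, and the other 102 were not analysed here. The values come from single-end RNA-seq of midgut cells sorted for the Esg-GFP fusion, which marks the intestinal progenitors (stem cells and enteroblasts), from adult Drosophila at day 10. There were 4 libraries of the Esg-GFP line, called wild type here, and 3 of Esg-GFP; Sox21a-/-, which carries the same fusion and lacks Sox21a, a Sox family transcription factor, through CRISPR-made deletions. Each replicate pooled the guts of many flies, so p-values measure the spread between such pools. The fusion is only as specific as the sort, since it reports esg, which has no row here to check it by. In bulk libraries fewer cells of a type and less RNA per cell cannot be told apart.

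snoRNAs guide the chemical modification of other RNAs in the nucleus. Box C/D snoRNAs lead the methyltransferase Fibrillarin to the riboses of ribosomal RNA (rRNA), box H/ACA snoRNAs lead a pseudouridine synthase to its uridines, and a few members such as U3 and U14 take part in cutting the rRNA precursor. Small Cajal body RNAs (scaRNAs) do the same for the RNAs of the spliceosome. In Drosophila most of these RNAs are cut from introns of host genes, many of which encode ribosomal proteins, while the Uhg genes are hosts that encode no protein. Symbols name the predicted target, so that Psi28S stands for a pseudouridine in 28S rRNA and Me18S for a nucleotide of 18S rRNA methylated on its ribose.

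By symbol, 49 of the genes were box C/D, 93 were box H/ACA, 10 were scaRNAs and 20 gave no class. Box C/D genes had a median length of 80 nt and box H/ACA genes of 140 nt, within a range of 67 to 316 nt for all 172. In BDGP6, 162 of them lay in an intron of a gene on the same strand, none overlapped an exon of such a gene, and 10 had no such gene. The hosts were 68 genes, with 52 of the snoRNA genes in ribosomal protein genes and 29 in Uhg genes. Reads from a mature snoRNA and from the unspliced intron around it cannot be told apart in these values.

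The values are FPKM, read numbers divided by the length of the gene and by the depth of the library, and for genes this short they moved in large steps. Cufflinks divides by an effective length, the number of positions at which a fragment of the assumed size can lie in the gene, and not by the length itself. With its default fragments for single-end reads (mean 200 nt, SD 80 nt) and a shortest fragment of 47 nt, 393 of the 479 snoRNA values above 0 (82.0%) were a whole number of reads to within 0.02. The share was 56.8% at 46 nt and 59.3% at 48 nt, and 47 nt was chosen for its share. At 80 nt the effective length was 0.638 nt, and 1 read was worth 146 to 183 FPKM across libraries. At 140 nt it was 7.49 nt and 1 read was worth 12.5 to 15.6 FPKM, while at 316 nt 1 read was worth 0.817 to 1.02 FPKM. The FPKM of 1 read on a box C/D gene of 80 nt was thus that of 11.7 reads on a box H/ACA gene of 140 nt.

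**Figure D1:**
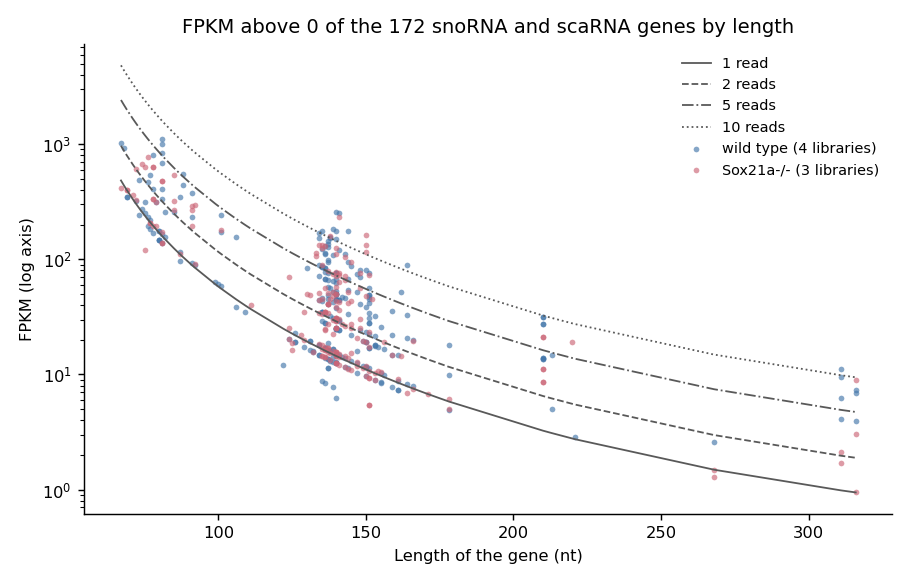
FPKM (log axis) of every value above 0 of the 172 genes against gene length in nt, 479 values in all, with wild type in blue and Sox21a-/- in red. Lines show what 1, 2, 5 and 10 reads are worth at the median depth of the 7 libraries, and the points lie in bands along them, with most of the 155 values of 1 read on the lowest line.

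Most snoRNA values rested on very few reads. Of the 479 values above 0, 155 (32.4%) were 1 read, 84 were 2 reads and 47 were 3 reads, and 328 (68.5%) stood for at most 3 reads. Only 15 values exceeded 10 reads, and the highest read number was 17, for snoRNA:229 in wild type replicate 4 and for Psi28S-3436a in wild type replicate 3. The median FPKM above 0 was 33.6 for these genes and 9.41 for all genes in the table, although the median snoRNA value was 2 reads. Box C/D and box H/ACA genes had the same median of 2 reads per value above 0 but median FPKM of 225 and 30.3. Box C/D genes accordingly held 42.8% to 69.0% of the summed snoRNA FPKM of a library and 12.9% to 22.6% of its snoRNA reads.

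An exact 0 was the commonest value. Of the 1204 snoRNA values, 60.2% were 0, against 25.7% of all values in the table, with 59.3% in wild type and 61.4% in Sox21a-/-. The shares of 0 leave out the 102 annotated snoRNA genes without a row. No row of the table was at 0 in every library, and so none of the 172 genes was. They were above 0 in 1 library for 49 genes, in 2 for 41, in 3 for 34, in 4 for 17, in 5 for 16, in 6 for 7 and in all 7 for 8. Among box H/ACA genes 45.6% of values were above 0, and among box C/D genes 27.4%. An estimate of 0 did not always mean a weak gene, since 55 genes had at least 5 reads in some library and 47 of these were at 0 in another. snoRNA:229, in an intron of Fib, had 14, 0, 0 and 17 reads in wild type replicates 1 to 4 and 5, 4 and 1 reads in Sox21a-/- replicates 1 to 3. Among other short RNA genes, 68.7% of the values of 111 tRNA genes were 0, but only 26.6% of those of 29 small nuclear RNA genes.

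Depth as recovered from the values was about 8564780 to 10694600 reads, in a higher level of depth (2 wild type libraries, replicates 1 and 2, with replicate 2 of Sox21a-/-) and a lower one (the other libraries). Genes above 0 numbered 71, 75, 66 and 68 in wild type replicates 1 to 4 and 68, 77 and 54 in Sox21a-/- replicates 1 to 3. Reads on snoRNA genes were 23.4, 26.9, 24.1 and 23.4 RPM (reads per 1000000 of the library) in wild type and 24.5, 21.1 and 12.7 RPM in Sox21a-/-. The means were 24.4 ± 1.66 (SD, n = 4) and 19.4 ± 6.05 (SD, n = 3), the groups overlapped, and Sox21a-/- replicate 3 was the lowest library in all of these measures. Summed snoRNA FPKM ran from 6010 to 7279 in wild type and from 4813 to 7003 in Sox21a-/-, and these groups overlapped too. In Sox21a-/- replicate 3 the enteroendocrine peptide gene NPF was also listed at 0, against 3989 to 9268 FPKM in the other 6 libraries, and the part of this in its low snoRNA reads was not tested.

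**Figure D2:**
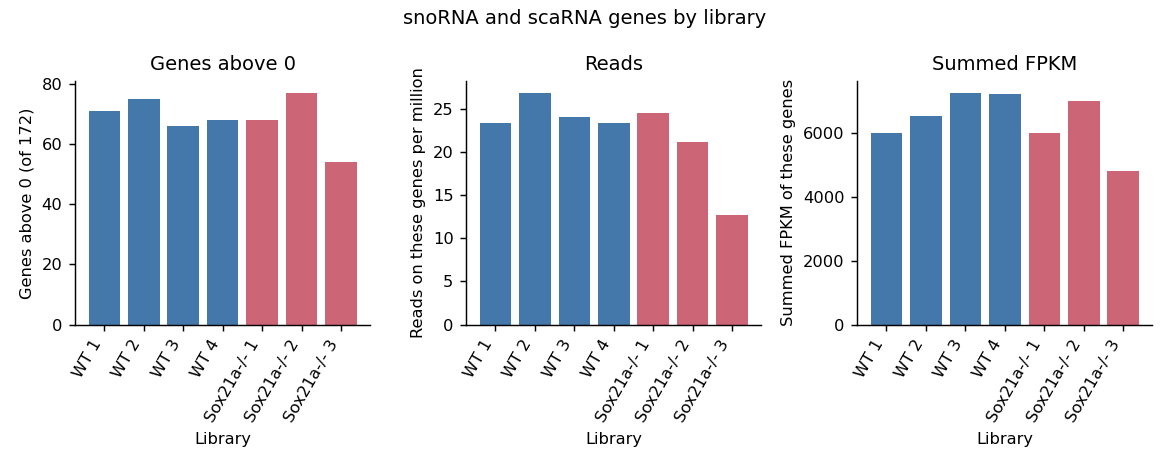
Bars show, for wild type (WT, blue) and Sox21a-/- (red) libraries, the number of the 172 genes above 0, their RPM and their summed FPKM. Sox21a-/- replicate 3 is the lowest bar in each panel, at 54 genes, 12.7 RPM and 4813 FPKM.

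Which genes were above 0 differed between libraries of the same group. Between 2 wild type libraries 32 to 40 genes were above 0 in both, between 2 Sox21a-/- libraries 27 to 39, and between a wild type and a Sox21a-/- library 20 to 37. The 18 genes above 0 in all 4 wild type libraries and the 19 above 0 in all 3 Sox21a-/- libraries shared the 8 genes above 0 throughout. Counted over all 172 genes, 52 were above 0 in wild type libraries only and 31 in Sox21a-/- libraries only. Having 4 wild type libraries against 3 favours wild type in such counts even without a difference. The shares over all genes are not given here. Of the 49 genes above 0 in just 1 library, 29 were in a wild type and 20 in a Sox21a-/- library, and 28 of these 49 had 1 read.

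The 8 genes above 0 in every library were the C/D genes U3:54Aa and U3:54Ab and the H/ACA genes Or-aca3, Psi28S-2149, Psi18S-1377c, Psi18S-1854c, Psi28S-1135e and Psi18S-525j. U3:54Aa (FBgn0065048) and U3:54Ab (FBgn0065047) are copies of U3, the snoRNA needed for cutting 18S rRNA out of its precursor. Both were at 14.0, 27.3, 31.7 and 13.6 FPKM across wild type libraries, against 21.0, 11.2 and 8.63 FPKM in Sox21a-/-, and their values were the same in every library, so the reads of one copy cannot be told from those of the other. They counted as 4.98 to 9.63 reads per copy in wild type and 2.66 to 5.98 in Sox21a-/-, and the groups overlapped (log2 difference -0.63, SE 0.45, limma adjusted p = 0.622 after the Benjamini-Hochberg method). The third copy with a row, U3:9B, was above 0 in wild type replicates 2 and 3 only, at 14.7 and 5.04 FPKM.

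Among the H/ACA genes above 0 throughout, Or-aca3, in an intron of the ribosomal protein gene RpL4, had 1, 5, 6 and 1 reads in wild type and 1, 2 and 1 in Sox21a-/-. Psi18S-525j, from a row of 17 snoRNA genes in the introns of Arpc2, which encodes a subunit of the actin-nucleating Arp2/3 complex, had 2, 6, 1 and 1 reads and 2, 1 and 1 reads. The groups of both genes overlapped, and their highest read numbers were in wild type. Psi28S-2149 and Psi18S-1377c lie in introns of RpS7 and had 3, 1, 4 and 5 reads against 1, 1 and 4, and 5.54, 10.6, 1 and 3.5 reads against 1, 2 and 5. Psi18S-1854c and Psi28S-1135e lie in introns of RpS5a, with 3, 4, 4.5 and 3.5 reads against 1, 1 and 5, and 5.2, 3, 2.75 and 1.5 reads against 1.5, 7.77 and 0.5. For all 8 genes the groups overlapped and the log2 difference was negative, between -0.51 and -1.03, with adjusted p between 0.591 and 0.808 in limma. Exact permutation p, two-sided and taken over all 35 divisions into 4 and 3, lay between 0.2 and 0.571 for the 8 genes.

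The genes with the highest mean FPKM were a different set, all shorter than 82 nt and none above 0 in every library. U14:30Ea, a copy of the U14 snoRNA in an intron of Uhg2, had the highest mean of all, 363 FPKM, from 1098, 0, 831 and 0 FPKM across wild type libraries, against 0, 138 and 476 FPKM in Sox21a-/-. These were 8, 0, 5 and 0 reads and 0, 1 and 3 reads, and the value of 1098 FPKM stood 62nd among all genes of its library. Me28S-U3344b, in an intron of the oligosaccharyltransferase gene Stt3A, was at 0, 693, 166 and 997 FPKM and at 171, 138 and 0 FPKM, or 0, 5, 1 and 6 reads and 1, 1 and 0 reads. Or-CD4 and Me18S-A1061 both lie in introns of Uhg5. Or-CD4 was above 0 in wild type replicates 3 and 4 only, at 406 and 812 FPKM from 2 and 4 reads. Me18S-A1061 reached 193 and 234 FPKM in replicates 1 and 3 of wild type, from 1 read each, and 777 FPKM in Sox21a-/- replicate 2, from 4 reads. The groups of these 4 genes overlapped, with adjusted p between 0.591 and 0.964 in limma, and FBgn0065058 was the other gene of the highest 5.

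Across genotypes the comparison asks which genes differ between progenitors with and without Sox21a. In limma on log2(FPKM + 1), fitted over 6565 genes whose mean reached 1 FPKM and with Benjamini-Hochberg adjustment over all of them, 169 of the 172 snoRNA genes entered. At an adjusted p of at most 0.05, 2 were higher in Sox21a-/-, snoRNA:684 and Psi28S-1175c, where 1.39% of all genes tested were called higher. Psi18S-1347a alone was lower, where 1.05% of all genes were. The shares of the snoRNA genes, 1.18% and 0.592%, were below those of all genes. When each library was left out in turn these 3 genes stayed called. The number called higher was then 4 without wild type replicate 1, 3 without replicate 3, 4 without Sox21a-/- replicate 1, 6 without replicate 2 and 5 without replicate 3, and that called lower was 2 without wild type replicate 1, replicate 2 or Sox21a-/- replicate 2 and 3 without wild type replicate 3 or Sox21a-/- replicate 1 or 3. With zeros taken as missing values only 33 snoRNA genes could be tested, of which none was called higher and 4 lower. The 3 genes called above each had a group wholly at 0 and could not enter that test. For these alternatives the share of all genes called is not given here, so their counts cannot be set beside it. The 3 genes below the filter, lola-c, Psi28S-2566 and CG32479-b, had means of at most 0.965 FPKM.

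snoRNA:684 (FBgn0065058, 78 nt, BDGP6 chr3L:5763345-5763422, minus strand) lies in an intron of CG10576. Its values were 0 FPKM in each wild type library but 628, 337 and 194 FPKM in the Sox21a-/- libraries, a log2 difference of 8.43 (SE 0.41, limma adjusted p = 0.000388 after the Benjamini-Hochberg method). These values were 0, 0, 0 and 0 reads and 3, 2 and 1 reads, which is 6 reads in all. The groups did not overlap, and the exact permutation p was 0.0286, the smallest that 35 divisions allow. By level of depth these were 0 and 0 reads against 2 at the higher level and 0 and 0 against 3 and 1 at the lower. With every wild type library at 0 and every Sox21a-/- library above 0, both levels had to give the same direction, which adds no support. The exact 95% Poisson intervals of 3, 2 and 1 reads were 0.619 to 8.77, 0.242 to 7.22 and 0.0253 to 5.57 reads, and each overlapped that of 0 reads, 0 to 3.69. Against a floor of 3 reads over the wild type group, the RPM was 2.74-fold higher in Sox21a-/-, taking the 6 Sox21a-/- reads as exact. This fold is not a lower bound, since it leaves out the counting error of those 6 reads. Such intervals and floors cover no error other than that of counting. On log2(reads + 1), with reads brought to equal depth, a scale added after seeing the data, the difference was 1.58.

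The neighbours of snoRNA:684 in the introns of CG10576 are Psi18S-1397, Psi28S-1837a, Psi28S-1837b and Psi28S-1837c, all H/ACA genes. The 5 genes together had 10, 14, 3 and 13 reads in wild type and 13, 12 and 7 reads in Sox21a-/-, and the groups overlapped. In wild type replicate 1 all 10 reads were given to Psi18S-1397, in replicate 2 all 14 to Psi28S-1837c and in replicate 3 all 3 to Psi18S-1397. In wild type replicate 4 the 13 reads lay on 3 of the 5 genes, and in Sox21a-/- replicates 1 to 3 the genes above 0 numbered 5, 4 and 3. The host itself was at 206, 248, 244 and 247 FPKM across wild type libraries, against 155, 120 and 161 FPKM in Sox21a-/-, so its values were lower where snoRNA:684 was above 0.

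Psi28S-1175c (FBgn0083003), in an intron of RpS16, was at 0 in all wild type libraries and at 131, 24.6 and 24.3 FPKM in Sox21a-/-, from 7.5, 1.75 and 1.5 reads (log2 difference 5.46, SE 0.64, adjusted p = 0.0136 in limma, exact permutation p = 0.0286). The groups did not overlap. Against a floor of 3 reads over the wild type group the level was 4.90-fold higher, taking the Sox21a-/- reads as exact. The parts of reads became whole when summed over the 5 genes in RpS16, to 8, 6, 0 and 0 in wild type and 12, 15 and 7 in Sox21a-/-. Psi28S-1175a took all 8 reads in wild type replicate 1 and Or-aca1 all 6 in replicate 2, so the value of any member of this row is uncertain. The summed reads of the groups overlapped, and as RPM they did not, by the margin between 0.748 and 0.756.

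Psi18S-1347a (FBgn0083054), an H/ACA gene in an intron of the poly(A)-binding protein gene pAbp, was at 13.6, 41.2, 16.5 and 49.4 FPKM across wild type libraries, against 0 in Sox21a-/- (log2 difference -4.76, SE 0.53, adjusted p = 0.0104 in limma, exact permutation p = 0.0286). These were 1, 3, 1 and 3 reads against 0, 0 and 0. The level in Sox21a-/- was 1.95-fold lower, taking 3 reads over that group as the floor and the wild type reads as exact. With a pseudocount of 10 FPKM neither Psi18S-1347a nor Psi28S-1175c was called (adjusted p = 0.0641 and 0.0818 in limma), and on the scale of reads neither was (0.0867 and 0.118), while snoRNA:684 was called on both.

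The largest differences that were not called also rested on few reads. Me18S-U1356a, in an intron of Uhg8, was above 0 in Sox21a-/- replicates 1 and 2 only, at 196 and 314 FPKM from 1 and 2 reads (log2 difference 5.31, SE 2.03, adjusted p = 0.331 in limma). Psi18S-1377e, in an intron of RpS7, had 6.92, 9.23, 6 and 4 reads in wild type and 0, 3 and 0 in Sox21a-/- (log2 difference -4.77, SE 1.39, adjusted p = 0.223). Psi28S-2562, in an intron of RpS20, had 6, 3, 2 and 7 reads and 1, 0 and 0 reads (log2 difference -4.59, SE 1.17, adjusted p = 0.163). Neither of these H/ACA genes overlapped between groups.

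The methods of the study join a P value to a fold change and name no test. With limma's unadjusted P up to 0.05 and a 2-fold change on the log2(FPKM + 1) scale, 13 snoRNA genes (7.69%) were higher in Sox21a-/- and 12 (7.10%) were lower, beside 6.67% and 4.02% of all genes tested. Of the 13, 11 were at 0 in every wild type library, and their reads over all 7 libraries had a median of 7. They shared sources, since 4 of them lie in introns of kra and 2 in introns of RpS16. Of the 12, 5 were at 0 in every Sox21a-/- library, the median was 10.5 reads, and 2 lie in RpS20. Groups did not overlap for 3 genes higher in Sox21a-/- (1.78% of those tested, against 9.72% of all genes) and for 7 lower (4.14%, against 10.0%).

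The lower genes reached up to 38 reads over all libraries and the higher ones up to 27. FBgn0263459, a snoRNA gene with no host that was chosen here after its values were seen, had 6, 8, 4 and 3 reads in wild type and 0, 0 and 1 in Sox21a-/-, or 56.0, 75.3, 45.2 and 33.9 FPKM and 0, 0 and 10.8 FPKM. Its groups did not overlap (log2 difference -4.50, SE 0.95, adjusted p = 0.0863 in limma). It was called lower with a pseudocount of 10 FPKM (adjusted p = 0.0343), on the scale of reads (0.0495) and without Sox21a-/- replicate 3 (0.00305). Tudor-SN-a, at 311 nt among the longest and named for its host Tudor-SN, a nuclease gene, was also chosen after its values were seen. It had 13, 11, 6 and 4 reads against 2, 2 and 0 (log2 difference -2.02, SE 0.54, adjusted p = 0.184). Psi28S-3342, an H/ACA gene with no host, had 13, 3, 4 and 1 reads against 0, 1 and 0, and its groups touched in reads but not in FPKM (adjusted p = 0.205).

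Over the 169 genes tested the median log2 difference was -0.76, where that of all genes tested was 0.04, and 58.6% were negative against 48.5% of all genes. With 4 wild type and 3 Sox21a-/- libraries, reads in just 1 library fall more often in wild type even without a difference between groups. Of the 49 genes above 0 in just 1 library, 29 were in wild type, and the part of this in the negative share was not tested. The median standard error of a single gene was 1.68 among snoRNA genes and 0.82 among all genes. By class the median was -1.49 for the 49 box C/D genes, -0.60 for the 92 box H/ACA genes, -0.94 for the 10 scaRNAs and -0.77 for the 18 others. The median followed the scale, at -1.08 with a pseudocount of 0.1 FPKM, -0.29 with 10 FPKM and -0.24 on reads, and it lay between -0.79 and -0.32 when each library was left out in turn. A step from 0 to 1 read moved a gene of 80 nt by 7.20 to 7.52 on the log2(FPKM + 1) scale.

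The filter on low values did little to set such genes aside. A mean of 1 FPKM over 7 libraries takes 0.505 read at 140 nt and 0.0430 read at 80 nt, but 87.4 reads for a gene of 1500 nt. Of the 28 genes with 1 read in 1 library and none elsewhere, 26 passed and entered the test.

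Among the 10 scaRNA genes, MeU5-C46, the longest of the 172 at 316 nt and a guide for U5 snRNA by its symbol, was above 0 in all libraries but wild type replicate 2. It had 9, 0, 4 and 7 reads in wild type and 3, 11 and 1 in Sox21a-/-, only 0.944 to 9.02 FPKM where above 0, and the groups overlapped. PsiU5-44, in an intron of the splicing regulator gene tra2, had 1, 5, 0 and 7 reads against 1, 0 and 2. None of the 10 scaRNA genes was called by limma, 2 had an unadjusted p of at most 0.05, as had 14.3% of all genes tested, and all 10 together held 77.7 reads over the 7 libraries, against 1506 on all snoRNA genes.

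Grouping the genes by host showed where reads were shared. There were 15 host genes with at least 3 of the genes in their introns, holding 101 in all. The 14 in RpS5a had 38, 49.5, 26 and 33 reads in wild type and 29.5, 35.5 and 16 in Sox21a-/-, and the 17 in Arpc2 had 11, 22, 6 and 6 against 6, 18 and 9, with overlap in both. The 5 in RpS7 had 21, 30, 18 and 18 reads against 4, 10 and 10 and did not overlap. In RPM, groups were apart for RpS7 (lower in Sox21a-/-, 2.22 ± 0.41, SD, n = 4, against 0.83 ± 0.32, SD, n = 3) and RpS16 (higher) and overlapped for the other 13. That is 1 host of these 15 in each direction. Hosts with 2 of the genes, RpS20 and Tudor-SN among them, were not grouped, so this count leaves them out. Among all single genes tested, in FPKM, 10.0% were apart and lower and 9.72% apart and higher. Members of such a row are not independent, since similar copies side by side can take the same reads.

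Some rows were read in some libraries and not in others. The 4 genes in RpL17 had 0, 0, 34 and 2 reads in wild type and 30, 20 and 5 in Sox21a-/-, while RpL17 itself was high in every library, at 1657 to 3811 FPKM. The 5 genes in kra, a host that has no row here, had 0, 0, 7 and 13 reads against 30, 0 and 22. Within kra, the reads of wild type replicates 3 and 4 were all on Psi28S-3571, and those of the Sox21a-/- libraries were most often on Psi28S-3385a, with 13.5 and 12 reads in replicates 1 and 3. Of the pairs of these 15 hosts and a library with at least 5 reads, all reads were on 1 gene in 7 of 32 in wild type. In Sox21a-/- this was so in 1 of 25. These are counts over pairs that share hosts and libraries, and their difference was not tested.

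**Figure D3:**
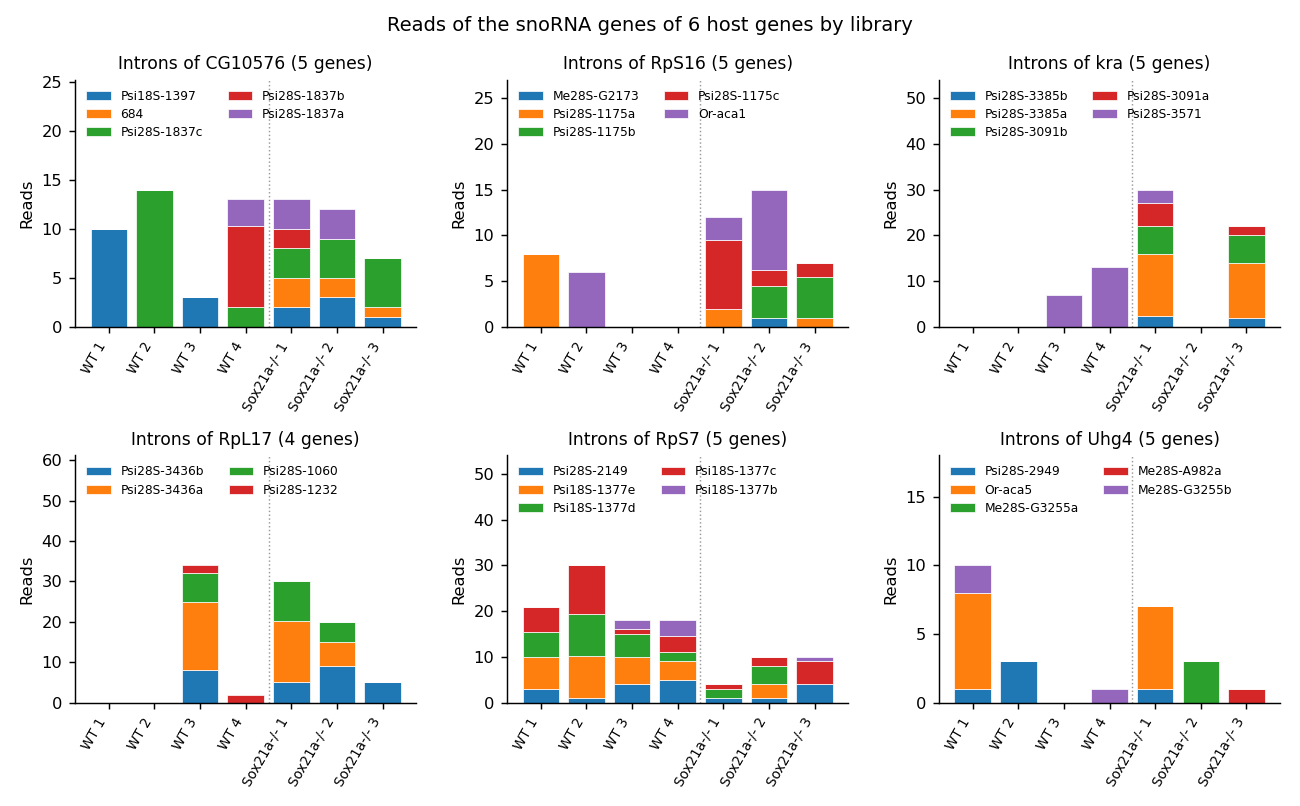
Stacked bars show the reads of each snoRNA gene in the introns of 6 host genes, by library, with wild type (WT) replicates 1 to 4 left of the dotted line and Sox21a-/- replicates 1 to 3 right of it. In CG10576 the wild type replicates 1 to 3 have all reads on 1 gene, and in RpS7 the wild type bars, at 18 to 30 reads, all stand above the Sox21a-/- bars, at 4 to 10.

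A host with a row was found for 74 of the genes, in 35 host genes. The gene was above 0 in 37.1% of 151 values where its host was listed at 0 and in 41.1% of 367 where the host was above 0. RpS16 shows how far the rows parted, as the host was at 4684, 3315, 0 and 0 FPKM across wild type libraries, against 6326, 0 and 0 FPKM in Sox21a-/-, with 15 and 7 snoRNA reads in the last 2 libraries. Of the 35 hosts, 24 were at 0 in at least 1 library, none was called higher or lower at an adjusted p of at most 0.05 in limma, 9 (25.7%) had an unadjusted p of at most 0.05 beside the 14.3% of all genes, and their median log2 difference was -0.17. The noncoding hosts Uhg2, Uhg4 and Uhg8 were each at 0 in at least 2 libraries and none was called.

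The proteins that snoRNAs work with are encoded by longer genes with many more reads, 1394 to 2082 for Fib in wild type and 724 to 1035 in Sox21a-/-. Core protein genes of both classes had rows for 6 of 8, and all 6 were lower in every Sox21a-/- library than in any wild type library, as were 10.0% of all genes tested. Nop56, a core protein of box C/D particles, was at 139, 177, 153 and 157 FPKM across wild type libraries, against 83.1, 56.5 and 81.0 FPKM in Sox21a-/- (log2 difference -1.09, SE 0.20, adjusted p = 0.0501 in limma, exact permutation p = 0.0286). Fib, the methyltransferase Fibrillarin, was at 117, 156, 206 and 212 FPKM and at 97.8, 61.0 and 100 FPKM, and nop5, the partner of Nop56, at 151 to 181 FPKM and at 64.3 to 96.5 FPKM.

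Of the H/ACA core genes, NHP2 was at 72.9 to 105 FPKM in wild type and 37.1 to 52.8 FPKM in Sox21a-/-, Gar1 at 93.1 to 128 and 45.2 to 78.5 FPKM, and Nop10 at 153 to 313 and 96.7 to 135 FPKM. The log2 differences of the 6 genes lay between -0.76 and -1.09, with unadjusted p between 0.00123 and 0.0185. None of the 6 passed an adjusted p of 0.05 in limma after the Benjamini-Hochberg method (0.0501 to 0.261). With zeros taken as missing values 5 of the 6 passed, and with quantile normalization 3. The median log2 difference of the 6 was -0.99, beside 0.04 over all genes tested.

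Among 6 assembly and Cajal body factors, CG10341, the fly counterpart of the H/ACA assembly factor Naf1, measured 27.5, 27.3, 27.3 and 24.9 FPKM in wild type and was listed at 0 in all 3 Sox21a-/- libraries (log2 difference -4.79, SE 0.23, adjusted p = 0.000388 in limma). It was the only factor of the 6 that was called, and no fold is given against a group listed at 0. Of all genes tested, 62.5% were at 0 in at least 1 library. Whether the zeros of CG10341 were failed estimates was not tested. The helicase genes pont and rept, whose products help to assemble snoRNA particles, were at 19.3 to 23.8 and 13.7 to 15.5 FPKM across wild type libraries, against 13.0 to 19.1 and 8.09 to 13.0 FPKM in Sox21a-/-, without overlap and with adjusted p of 0.504 and 0.591. Nopp140 and WDR79 were above 0 in 1 wild type library each, and coil, the coilin gene of Cajal bodies, in 3 libraries. Sox21a-/- replicate 2 was the lowest library for all 6 core genes, for pont and for rept.

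**Figure D4:**
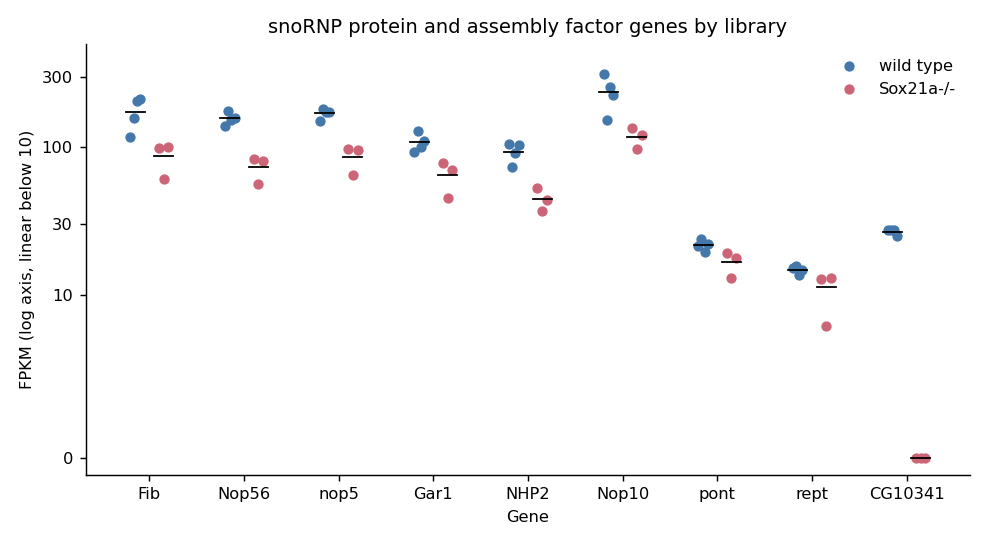
FPKM by library (points) and group means (lines) for 6 core protein genes and 3 assembly factor genes, wild type in blue and Sox21a-/- in red, on a log axis that is linear below 10. The 3 assembly factor genes drawn are those whose groups were apart, and Nopp140, coil and WDR79, whose groups overlapped, are left out. The groups of the 6 core genes are apart too, as were those of 10.0% of all genes tested in the same direction. CG10341 is at 0 in the 3 Sox21a-/- libraries.

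Marker genes of other cells were read beside these values. Of 6 enteroendocrine markers 3 had rows, summing to 3993 to 9268 FPKM in wild type and 2.53 to 8621 FPKM in Sox21a-/-, with NPF, Tk and AstA each at 0 in some library. The 4 enterocyte markers summed to 13.3 to 493 and 130 to 223 FPKM, with nub and Jon65Ai higher in every Sox21a-/- library than in any wild type one and Myo31DF and Amy-p at 0 in all 3. Of 3 hemocyte markers 2 had rows, summing to 0.102 to 130 FPKM and 138 to 143 FPKM, and no visceral muscle marker of 3 had a row. Of 6 progenitor markers 4 had rows, summing to 152 to 426 and 120 to 534 FPKM, of which klu was called lower (adjusted p = 0.0388 in limma). The Sox21a row was at 0, 0, 230 and 233 FPKM across wild type libraries, against 96.3, 50.6 and 0 FPKM in Sox21a-/-, so it does not check the labels. The part of these genes' differences in the lower levels of the core protein genes was not tested.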

How the data were processed

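RNA-seq was carried out on sorted Esg-GFP+ cells, and the deposited FPKM values, which the authors made for 7608 genes with TopHat2 2.0.10 (Release 5, BDGP5 annotation) and Cufflinks 2.2.1, were the only values used. The TruSeq RNA kit in the methods selects polyadenylated RNA, and mature snoRNAs carry no poly(A) tail; what this did to their reads was not tested. The methods give 3 replicates, and all 4 wild type libraries were kept.

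Classes, hosts, lengths and positions were looked up in the BDGP6 annotation through the FlyBase ID (7339 of 7608 matched; the other 269 were given no class), which is not the authors' build. No sequence is printed. Reads were recovered as FPKM times effective length over the value most often repeated, which also gave the depth, with lengths of BDGP6 and only for genes with 1 transcript in tests on reads. Values not whole to within 0.02 were kept as they are.

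The members, lists and tests were chosen with earlier results of these data known. limma 3.58.1 in R 4.3.3 (trend and robust settings, two-sided, no covariate) was run on log2(FPKM + 1) for genes whose mean reached 1 FPKM, with Benjamini-Hochberg adjustment, and tested on simulated data. Changes of genes low in FPKM come out too small on this scale. For short genes with few reads the steps are large instead, at 7.20 to 7.52 from 0 to 1 read at 80 nt. For single genes an exact permutation p was taken over all 35 divisions of the libraries. Named by rule were FBgn0065058, genes above 0 in every library, genes called, the 5 with the highest mean FPKM and the 3 with the largest difference in each direction. No gene was named for a pattern like that of the summed level, which varied by 1.51 times. Alternatives were pseudocounts of 0.1 and 10 FPKM, no filter, a minimum mean of 5 FPKM, quantile, median-ratio and equal-sum scaling, zeros as missing, limma without trend and robust settings, depth level as a covariate, the replicate number as a block, and each library left out. The scale of reads was added after seeing the data. Other steps ran in Python 3.11.15 (numpy 2.4.6, with pandas 2.3.3 for tables, matplotlib 3.10.9 for plots and scipy 1.17.1 for intervals).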

Additional observations from a re-analysis of the deposited data

Results flagged for a closer look

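Of 39 sets of wild type values examined, 4 held a library far from the other 3, where chance gives about 1 in 20. Psi18S-525j measured 84.8 FPKM (6 reads) in replicate 2 of wild type and 16.9 to 28.0 FPKM (1 or 2 reads) in the others. CG10341 measured 24.9 FPKM in replicate 4 of wild type and 27.3 to 27.5 FPKM in the others, a narrow range, and was listed at 0 in the Sox21a-/- libraries. Nopp140, a nucleolar and Cajal body protein gene, measured 98.5 FPKM in replicate 2 of wild type and was listed at 0 in every other library of either group. WDR79, which encodes a Cajal body protein that binds scaRNAs, measured 12.5 FPKM in replicate 1 of wild type and was likewise at 0 elsewhere.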

How the results depend on the processing

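The 2 snoRNA genes called higher in Sox21a-/- became 1 with a pseudocount of 10 FPKM, 1 on the scale of reads, 0 with zeros as missing values and 0 with the replicate number as a block, and 2 to 6 when libraries were left out. The 1 called lower became 4 with zeros as missing (SC35-a, Psi28S-2996, Tudor-SN-a and Psi28S-1135f), 0 with the block and 1 to 3 when libraries were left out. With zeros as missing, the genes called as reported could not be tested, since each had a group wholly at 0. The deviations of same-numbered libraries from their group means correlated at -0.037, 0.025 and -0.011. Such values cannot show whether the samples were prepared in pairs. The median log2 difference of the snoRNA genes was -1.08 with a pseudocount of 0.1 FPKM, -0.29 with 10 FPKM, -0.43 with the block, -0.24 on reads and -0.79 to -0.32 with libraries left out. Of the 6 core protein genes, called in 0 as reported, 1 was called with a pseudocount of 0.1 FPKM, a mean of at least 5 FPKM, median-ratio scaling, equal-sum scaling or depth level as a covariate, 3 with quantile normalization, 5 with zeros as missing, 2 of 5 on reads and 0 to 1 with libraries left out. The log2 difference of U14:30Ea, 0.39 as reported, turned to -0.13 with a pseudocount of 10 FPKM, -1.89 with zeros as missing, -1.26 with the block, -0.44 on reads and ran from -1.39 to 3.06 with libraries left out. That of Me18S-A1061, -0.67 as reported, turned to 0.24 on reads and ran from -3.87 to 0.93 with libraries left out. Without Sox21a-/- replicate 3, Psi28S-1135e turned to 0.29 (range -1.48 to 0.29 over the libraries left out) and Me28S-U3344b to 0.58 (-4.08 to 0.58). CG10341 was called in every alternative that tested it but the block. Of 482 values of 26 single genes under 19 settings, 15 changed direction. The cause was not tested for any of these. Shares of all genes called are not given for the alternatives, so their counts of genes called have no background. The snoRNA values rest on 0 to 17 reads each.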
